A study of Oryza sativa Japonica Group with 8 samples.

Results

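The small RNA pathway genes described here are 10 rice genes that make, stabilise or use small RNAs. They were chosen by identifier from the 37859 identifiers of the deposited expression table. The symbols come from the list of chosen identifiers. They are 3 Dicer genes, DCL1 (Os03g0121800), DCL3a (Os01g0909200) and SHO1, the rice DCL4 (Os04g0509300), the RNA-dependent RNA polymerase gene SHL2, the rice RDR6 (Os01g0527600), and the methyltransferase gene WAF1, the rice HEN1 (Os07g0164000). The other 5 are the Argonaute genes AGO1a (Os02g0672200), AGO1b (Os04g0566500), AGO1d (Os06g0729300), AGO7 (Os03g0449200) and MEL1 (Os03g0800200). By their identifiers they lie on chromosomes 1, 2, 3, 4, 6 and 7. RNA was sequenced from meristems dissected out of young inflorescences of the rice cultivar Nipponbare (Oryza sativa, japonica). The tissue was described by the submitters as enriched in PBMs and ePBM/Ams. The 8 libraries were 4 from an osg1l2 single mutant and 4 from wild type control plants. OsG1L2 is a member of the ALOG family of plant nuclear proteins. The sources used here do not give the mutant allele, the number of mutant lines or the plants pooled per library. All plants of both genotypes grew in long days of 16 h light and were sampled once 12 short days, each with 12 h of light, had passed.

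In plants, Dicer proteins cut double-stranded RNA into small RNAs, HEN1-type methyltransferases protect the ends of these RNAs, and Argonaute proteins carry them to matching transcripts. DCL1 releases microRNAs from hairpin precursors. A separate branch starts when AGO7 loaded with a microRNA marks a non-coding transcript, which an RDR6-type polymerase copies and a DCL4-type Dicer cuts into trans-acting siRNAs that restrain a group of auxin response factor transcripts. In rice, loss of SHL2, SHO1 or AGO7 disturbs formation of the shoot meristem, and loss of WAF1 disturbs leaf and floral organ form.

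The deposited values per library were in FPKM, fragments per length of gene model and per size of library, as scaled by the authors. This unit is meant for setting levels of different genes side by side. The authors' deposited values per genotype differ from the FPKM to a different degree for each gene, so levels between genes are uncertain to that extent. The FPKM summed to between 213940 and 221906 in osg1l2 libraries and to between 218558 and 231675 in wild type libraries. Sequencing depth is unknown, so no interval for counting error is given. On the second principal component of all tested genes, wild type replicate 2 lay at -28.4, away from the other wild type libraries at 4.87 to 10.8. This library was also the lowest wild type library for 6 of the 10 small RNA pathway genes, and osg1l2 replicate 2 was the lowest osg1l2 library for 5. The expression of OsG1L2 and of meristem marker genes was not analysed here, because the tables do not pair identifiers with names, so neither the genotype labels nor the tissue were checked against marker genes. In these bulk libraries, fewer cells of a type and less RNA per cell cannot be told apart.

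All 10 genes had a value above 0 in every library, and 9 of them averaged at least 1 FPKM. AGO1b was the most abundant, with a mean over the 8 libraries of 33.1 FPKM, above 96.9% of all genes in the table. Among only the genes that averaged at least 1 FPKM, AGO1b lay above 93.6%. AGO1d followed at 21.9 FPKM. DCL3a (17.1 FPKM), DCL1 (16.0 FPKM), SHO1 (15.2 FPKM), AGO1a (13.7 FPKM) and WAF1 (11.8 FPKM) formed a middle group, each above at least 88.8% of all genes. WAF1, the lowest of this group, lay above 76.7% of the genes that averaged at least 1 FPKM. The members of the trans-acting siRNA branch that act before the Dicer step were lower, AGO7 at 4.39 FPKM and SHL2 at 2.57 FPKM. Of the genes that averaged at least 1 FPKM, AGO7 lay above 42.9% and SHL2 above 24.5%. MEL1, which encodes an Argonaute known in rice for its role in germ cells before meiosis, was lowest at 0.841 FPKM, near the middle of the table (above 50.3% of all genes).

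This order was nearly the same in every library. Neighbouring genes in the order were separated in all libraries of both genotypes, except among the Dicers. DCL3a was above DCL1 in 7 of 8 libraries, and their ranges overlapped in both genotypes. DCL1 was above SHO1 in 6 of 8 libraries, and their ranges overlapped in osg1l2 but not in wild type. The authors' deposited comparison gives values per genotype, with no unit named, and there the order differed in part. DCL1 (27.7 in osg1l2, 26.0 in wild type) lay above DCL3a (23.8 and 22.4). SHL2 (5.84 in osg1l2, 5.58 in wild type) lay above AGO7 (4.40 and 4.59). In wild type AGO1a (20.3) lay above SHO1 (19.4). The order given here is therefore that of the FPKM per library.

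**Figure D1:**
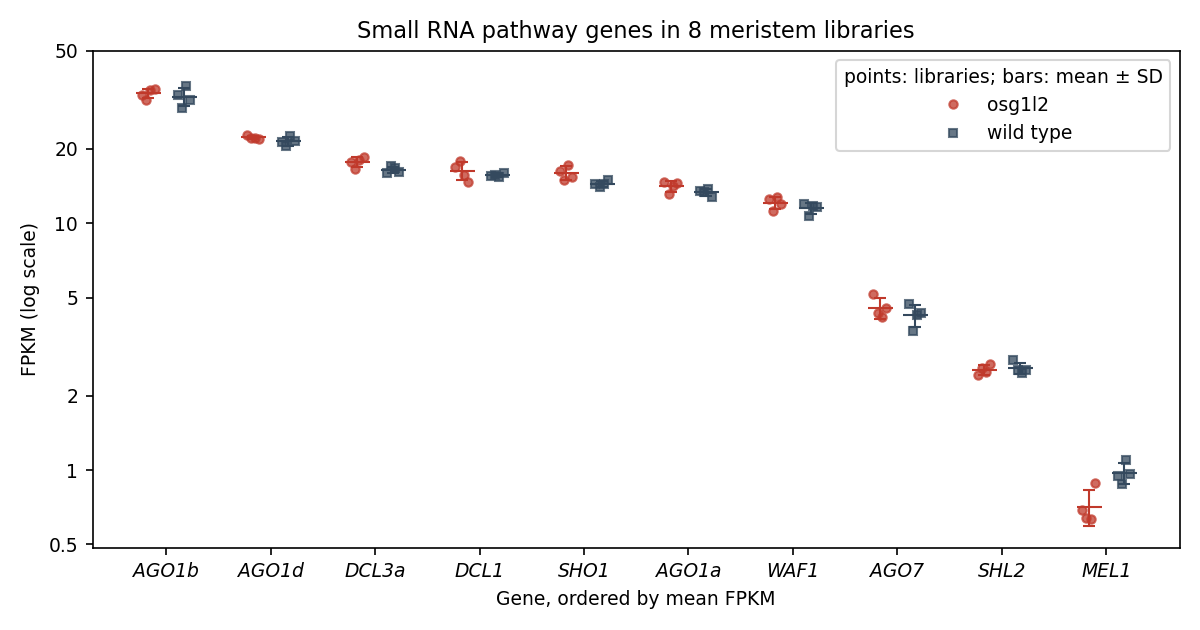
FPKM of each gene (log axis) in osg1l2 libraries (circles) and wild type libraries (squares), with the mean and SD of 4 libraries as bars. AGO1b is highest near 33.1 FPKM and MEL1 lowest near 0.841 FPKM, and within each gene the genotypes overlap.

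None of the small RNA pathway genes passed the test for a difference between the genotypes. The 18254 genes that averaged 1 FPKM or more, 9 of the 10 among them, were compared between the genotypes with limma on log2(FPKM + 1), and a gene was called at a Benjamini-Hochberg adjusted p under 0.05 over all of them. The test called 0 of the 9, against 1.93% of all tested genes. By the q-value of the authors' deposited table, none of the 10 passed 0.05, with a lowest of 0.23. At an unadjusted limma p under 0.05 there was 1 of 9, SHO1, against 19.5% of all tested genes. The libraries of the genotypes did not overlap for 0 of the 10 genes, against 11.8% of all tested genes. Fold changes are osg1l2 over wild type, as log2 of FPKM + 1, a scale that understates the change of low genes. They ran from -0.015 for SHL2 to 0.13 for SHO1, and adjusted p from 0.22 to 0.91. The 95% intervals of the 9 genes together reached from -0.14 to 0.26. The intervals therefore do not show that the levels were equal, only how large a difference these libraries allow. Among the 12613 tested genes with means from that of SHL2 to that of AGO1b, the called log2 changes had a median size of 0.47 and a smallest size of 0.21.

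The estimates of 8 of the 9 genes were above 0, with a median of 0.066, while 38.3% of all tested genes were above 0 and their median was -0.037. Without wild type replicate 2 the median of the 9 genes was 0.032 and that of all tested genes -0.050. Every osg1l2 library had a lower summed FPKM over all genes than 3 of the 4 wild type libraries, and wild type replicate 2 lay within the osg1l2 range. The part of library totals in these signs was not tested. With the libraries rescaled by median-of-ratios factors, 9 of the 9 estimates were above 0, with a median of 0.11, and 50.8% of all tested genes were. The spread between libraries was low for these genes, with a median residual SD of 0.067 on the log2 scale against 0.11 for all tested genes.

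**Figure D2:**
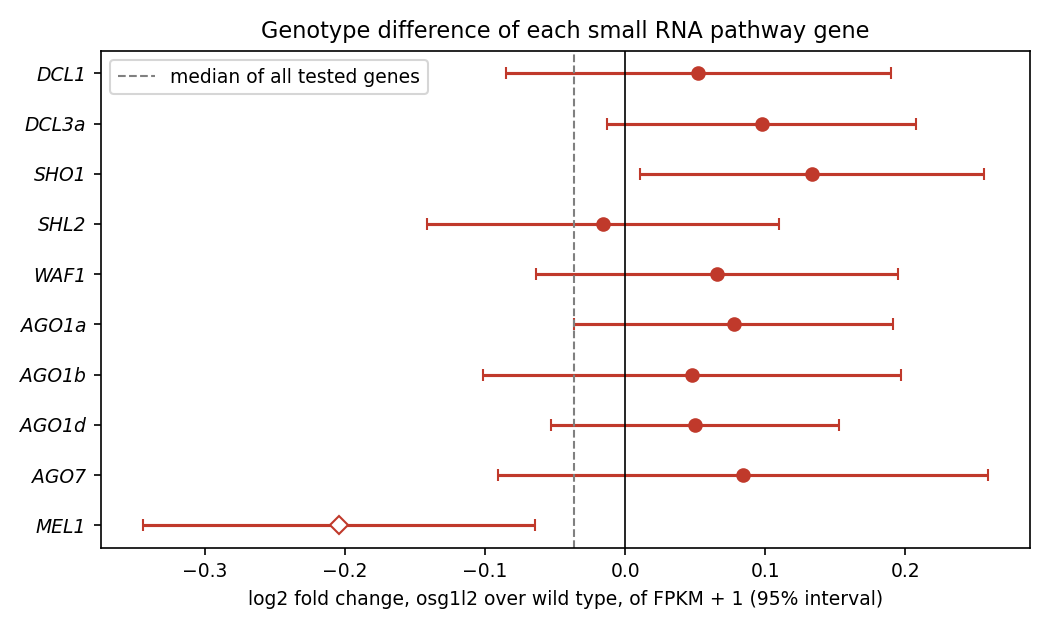
Log2 fold change of FPKM + 1, osg1l2 over wild type, for each gene, with its 95% interval from limma. Filled circles are the 9 genes of the main comparison, the open diamond is MEL1 from the comparison with no filter on low values, and the dashed line is the median of all tested genes (-0.037). The 9 filled circles lie between -0.015 and 0.13.

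Among the Dicers, SHO1, which makes trans-acting siRNAs, had the largest difference of the 9 genes. Its levels were 16.3, 14.9, 17.3 and 15.4 FPKM in osg1l2 replicates 1 to 4, against 14.4, 14.0, 14.4 and 15.0 FPKM in wild type replicates 1 to 4. Of the osg1l2 libraries 3 lay above the highest wild type library, and osg1l2 replicate 2 lay within the wild type range. SHO1 averaged 16.0 ± 1.02 FPKM in osg1l2 and 14.5 ± 0.437 FPKM in wild type (SD, n = 4 each), a mean 10.5% higher in osg1l2. On the log2 scale the difference was 0.13 (standard error 0.055, 95% interval 0.011 to 0.26). With an unadjusted p of 0.036 it ranked 2971st among the tested genes, and its limma adjusted p of 0.22 did not pass.

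DCL3a, the Dicer for the longer siRNAs that direct DNA methylation, was at 17.7, 16.6, 18.0 and 18.5 FPKM in osg1l2, against 15.9, 16.99, 16.8 and 16.2 FPKM in wild type. Again 3 osg1l2 libraries were above all of wild type, and osg1l2 replicate 2 was within its range. Its mean was 7.46% higher in osg1l2, with a log2 fold change of 0.097 (standard error 0.049, 95% interval -0.013 to 0.21, limma adjusted p = 0.31).

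DCL1, the microRNA Dicer, was at 16.8, 17.9, 15.7 and 14.8 FPKM in osg1l2 and at 15.6, 15.7, 15.3 and 16.0 FPKM in wild type. The osg1l2 libraries lay on both sides of the narrow wild type range, 2 above it and 1 below. On the log2 scale the difference was 0.052, with a 95% interval of -0.085 to 0.19 (limma adjusted p = 0.68). The coefficient of variation of DCL1 was 8.45% among osg1l2 libraries and 1.85% among wild type libraries; the difference in spread was not tested.

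DCL1, DCL3a and SHO1 each took about an equal part of their summed FPKM. Other Dicer genes of rice could not be looked up here and are not in this sum. DCL1 made up 32.6% ± 2.71 of the sum in osg1l2 and 33.6% ± 0.433 in wild type, DCL3a 35.4% ± 1.87 in osg1l2 and 35.3% ± 1.03 in wild type, and SHO1 31.9% ± 1.51 in osg1l2 and 31.0% ± 0.831 in wild type (SD, n = 4 each). The sum itself was between 48.7 and 51.0 FPKM in osg1l2 and between 45.9 and 47.2 FPKM in wild type. These ranges do not overlap, although those of each Dicer do. Among all tested genes, taken singly, 11.8% did not overlap. The summed FPKM of AGO1a, AGO1b and AGO1d overlapped, at 67.0 to 71.6 in osg1l2 and 63.2 to 72.3 in wild type. The sum of the 10 genes also overlapped, at 135 to 142 FPKM in osg1l2 and 128 to 138 FPKM in wild type. As a percentage of the summed FPKM of all genes in the same library, the sum of the 10 did not overlap. It was 0.0609% to 0.0665% in osg1l2 and 0.0582% to 0.0597% in wild type, and this percentage carries no test. The Dicer sum was formed after the values were seen and carries no test. In the authors' deposited values per genotype the Dicers were less equal, with DCL1 the highest. In osg1l2 these were 27.7 for DCL1, 23.8 for DCL3a and 21.8 for SHO1, and in wild type 26.0, 22.4 and 19.4.

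SHL2, the polymerase that copies cut transcripts into double-stranded RNA, had the smallest difference. It was at 2.42, 2.58, 2.50 and 2.69 FPKM in osg1l2 and at 2.78, 2.54, 2.47 and 2.55 FPKM in wild type. The ranges overlapped, with osg1l2 replicate 1 below every wild type library and wild type replicate 1 above every osg1l2 library. The genotype difference was -0.015 on the log2 scale, with a 95% interval of -0.14 to 0.11 (limma adjusted p = 0.91). It came out just above 0 after either rescaling of the libraries, at 0.019 with median-of-ratios factors and 0.018 with quantile normalization.

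Of the 3 genes of the trans-acting siRNA branch measured here, AGO7, SHL2 and SHO1, SHL2 had the lowest FPKM. In the authors' deposited values per genotype AGO7 was the lowest instead, at 4.40 in osg1l2 and 4.59 in wild type. There SHL2 was at 5.84 in osg1l2 and 5.58 in wild type, and SHO1 at 21.8 and 19.4. The ratios that follow are of the FPKM per library. The level of SHO1 exceeded that of SHL2 by 6.29 ± 0.616 times in osg1l2 and by 5.61 ± 0.326 times in wild type (SD, n = 4 each), with overlapping ranges of 5.74 to 6.90 in osg1l2 and 5.19 to 5.90 in wild type.

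AGO7, the Argonaute that starts this branch, was at 5.16, 4.32, 4.18 and 4.51 FPKM in osg1l2 and at 4.70, 3.67, 4.25 and 4.31 FPKM in wild type. Only osg1l2 replicate 1 lay above the wild type range, and wild type replicate 2 gave the lowest value. The log2 fold change was 0.084, with the widest interval of the 9 genes, from -0.091 to 0.26 (limma adjusted p = 0.59). In the authors' deposited table the sign was the opposite, a log2 fold change of -0.061 with a q-value of 0.99, and SHL2 also changed sign there, to 0.065 (q = 0.92). The authors' deposited table and the comparison made here gave the same sign for the other 7 of the 9 genes.

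WAF1, which methylates the ends of small RNAs, was at 12.5, 11.2, 12.8 and 12.0 FPKM in osg1l2 and at 12.0, 10.7, 11.7 and 11.7 FPKM in wild type. Replicate 2 was the lowest library in each genotype, and the other osg1l2 libraries lay just above the wild type range. For WAF1 the log2 fold change was 0.066, with a 95% interval of -0.063 to 0.19 (limma adjusted p = 0.56).

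**Figure D3:**
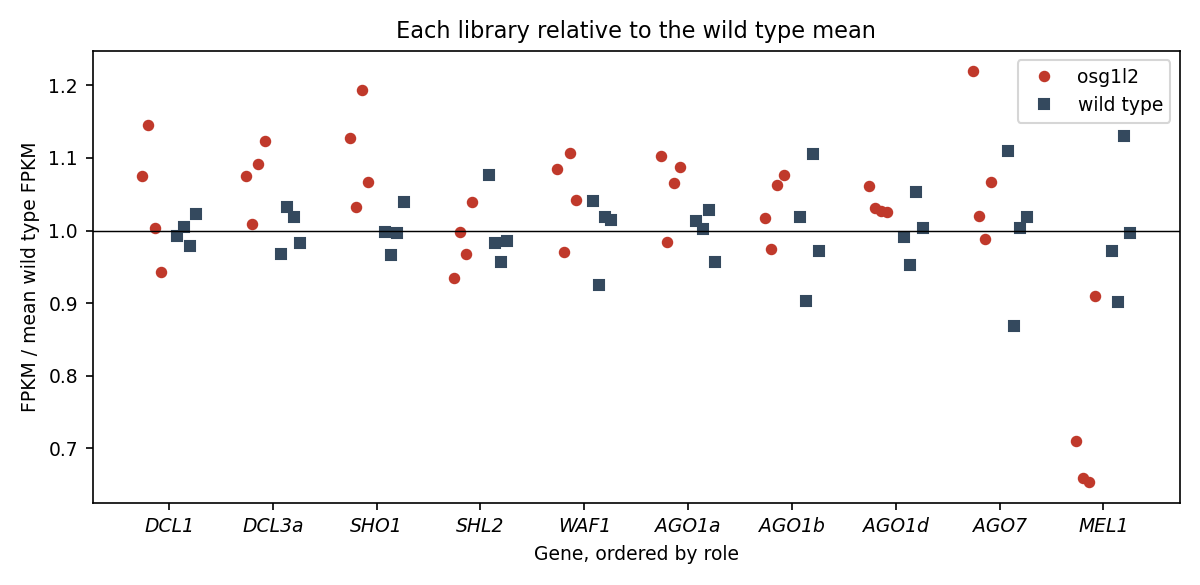
FPKM of each library divided by the mean wild type FPKM of the same gene, in osg1l2 (circles, left) and wild type (squares, right), with replicates 1 to 4 from left to right. For each of SHO1, DCL3a, WAF1 and AGO1a 3 osg1l2 circles lie above every square, and for MEL1 3 lie below every square, the lowest at 0.653. The share of all tested genes with 3 osg1l2 libraries beyond the wild type range was not counted.

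The AGO1 proteins bind most microRNAs and cut their target transcripts. AGO1b was at 33.1, 31.7, 34.6 and 35.0 FPKM in osg1l2 and at 33.2, 29.4, 36.0 and 31.7 FPKM in wild type, so the osg1l2 values lay wholly within the wild type range. Its log2 fold change was 0.047, with a 95% interval of -0.10 to 0.20 (limma adjusted p = 0.73).

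AGO1d was at 22.8, 22.2, 22.1 and 22.0 FPKM in osg1l2 and at 21.3, 20.5, 22.6 and 21.6 FPKM in wild type. Its osg1l2 libraries were the closest together of any of the 10 genes, with a coefficient of variation of 1.62%, and 1 of them lay above wild type. AGO1d had a log2 fold change of 0.050, with a 95% interval of -0.053 to 0.15 (limma adjusted p = 0.59).

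AGO1a was at 14.7, 13.1, 14.2 and 14.5 FPKM in osg1l2 and at 13.5, 13.4, 13.7 and 12.7 FPKM in wild type. As for SHO1, DCL3a and WAF1, 3 osg1l2 libraries lay above wild type and osg1l2 replicate 2 within it. These are the same libraries for each gene, and the share of all tested genes with such a pattern was not counted. AGO1a had a log2 fold change of 0.078 (standard error 0.051, 95% interval -0.036 to 0.19, limma adjusted p = 0.44).

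The proportions of these AGO1 transcripts were close in the genotypes. AGO1b supplied 48.0% ± 1.04 of the summed FPKM of AGO1a, AGO1b and AGO1d in osg1l2 and 48.3% ± 1.39 in wild type. AGO1d supplied 31.8% ± 1.05 in osg1l2 and 31.9% ± 0.722 in wild type, and AGO1a 20.2% ± 0.512 in osg1l2 and 19.8% ± 0.952 in wild type (SD, n = 4 each). The ranges overlapped for each copy, and the differences were smaller than the SD within either genotype. These genes are paralogs, and how reads that match more than 1 copy were assigned is not stated in these sources, so their separate levels are uncertain to that extent.

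**Figure D4:**
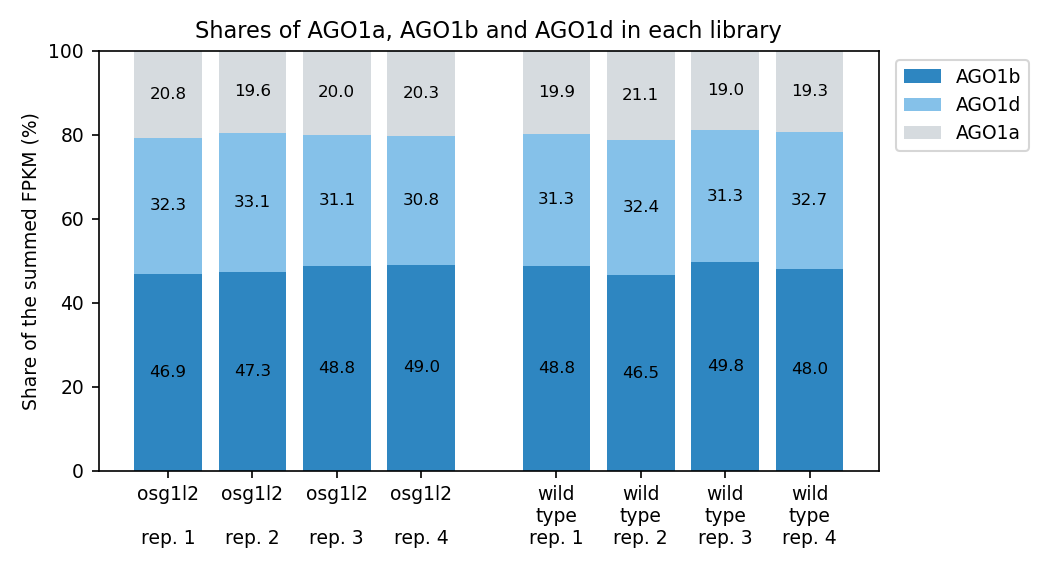
Share of AGO1b (bottom), AGO1d (middle) and AGO1a (top) in the summed FPKM of these 3 genes, in percent, for each osg1l2 library (left) and each wild type library (right). AGO1b takes 46.5% to 49.8% in every library of either genotype.

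MEL1 had the largest relative difference in means of the 10 genes, with the lower mean in osg1l2. Its levels were 0.689, 0.639, 0.634 and 0.883 FPKM in osg1l2 and 0.943, 0.874, 1.10 and 0.966 FPKM in wild type. Of the osg1l2 libraries 3 lay below every wild type library, and osg1l2 replicate 4 lay just above the lowest, wild type replicate 2. MEL1 averaged 0.711 ± 0.117 FPKM in osg1l2 and 0.970 ± 0.0931 FPKM in wild type (SD, n = 4 each), a difference of -26.7%. With a mean under 1 FPKM it was not among the genes of the main comparison. With no filter on low values (32542 genes) the log2 fold change of MEL1 was -0.20 (standard error 0.059, 95% interval -0.34 to -0.065). The unadjusted p was 0.010 and the limma adjusted p was 0.17, so the difference did not pass. The authors' deposited table gave a log2 fold change of -0.38 and a q-value of 0.23, the lowest of the 10.

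The genes also varied together to different degrees from library to library. Deviations of log2(FPKM + 1) from the genotype means over the 8 libraries were compared for all 45 pairs, as a description. These deviations share each library's scaling, and the 8 points carry 6 independent deviations per gene. The pair most alike was SHO1 and WAF1, with a Pearson correlation of 0.82, followed by AGO1b with AGO1d at 0.71. The nearest gene to AGO1b apart from AGO1d was MEL1, at 0.70, and DCL3a was nearest to AGO1a, also at 0.70. DCL1 had no close partner: its highest correlation was 0.050, with AGO7, and with DCL3a it was -0.81, the lowest of the 45. The median over all pairs was 0.20.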

How the data were processed

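The authors deposited 2 tables: FPKM per gene for each of the 8 libraries, and a table of their own comparison. The submitters' processing notes name the genome build IRGSP-1.0. The sources used here give no aligner, quantification program, strandedness or depth. Sense and antisense reads therefore cannot be told apart. The deposited comparison holds, per the file headers, 1 value per genotype, treated as a score because no unit is named, a log2 fold change (osg1l2 over wild type) and a q-value. The deposited log2 column codes a 0 in 1 genotype with a fixed number, which none of the 10 genes has. Which test gave the deposited q-value is not stated.

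Genes that averaged 1 FPKM or more were compared on log2(FPKM + 1) with limma 3.58.1 in R 4.3.3 (eBayes with trend, two-sided tests, Benjamini-Hochberg adjustment over all tested genes, threshold 0.05). The fit was tested on simulated data. Descriptions used Python 3.11.15, numpy 2.4.6 and pandas 2.3.3, and figures matplotlib 3.10.9. The design text calls the 4 replicates of a genotype independent but not in what respect, and p-values cover only the spread among these libraries. The genes and lists were chosen with earlier results of these data known. Values are given for all 10 genes, with further statistics for the smallest p-values. Of the 10 identifiers, 0 are in the reference gene table (assembly ASM3414082v1), so no sequence, position or further pathway gene is reported here, and the fixed lists of other pathway genes and cell type markers gave no value. Alternatives were other pseudocounts, filters and scalings, a replicate block, library weights, a robust prior and leaving out each library.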

Additional observations from a re-analysis of the deposited data

Results flagged for a closer look

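Of 32 groups of 4 values examined (each gene's levels, the AGO1 shares, the sum of the 10 genes and the first 2 principal components, by genotype), 2 had a library far from the others. For AGO1d in osg1l2, replicate 1, at 22.8 FPKM, was separated from the other libraries (22.0 to 22.2 FPKM) by a gap of 0.843 of their whole range, where 0.829 is critical for 4 values. The range itself was narrow. On the second principal component, wild type replicate 2 was separated from the other wild type libraries by a gap of 0.849 of their whole range. Without this library 826 genes in all were called, against 352 with it, and 0 of the small RNA pathway genes in either case. Chance flags about 1 in 20 groups when values are independent, but these groups share libraries and genes, and principal components are chosen for spread, so that rate need not hold here.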

How the results depend on the processing

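Over the main comparison and 17 alternatives, 0 of the small RNA pathway genes were called in either direction. Lowest adjusted p-values in limma over these fits were 0.13 for DCL3a and 0.14 for SHO1, both with library quality weights. SHO1 had an unadjusted p under 0.05 in 12 of 18 fits, DCL3a in 5, AGO1a in 1, and MEL1 in 13 of its 13 fits, all without a filter. Of all tested genes, 13.6% to 26.2% had such a p in the 18 fits, with 15.6% in the fit with no filter. All fits draw on the same libraries, so these counts are not independent results. Every gene of the main comparison other than SHL2 kept its sign in each fit that tested it; SHL2 turned to 0.019 with median-of-ratios rescaling, 0.018 with quantile normalization, and ranged from -0.035 to 0.010 when single libraries were left out, with positive values at 0.0022 without osg1l2 replicate 1 and at 0.010 without wild type replicate 1. The sizes depended on single libraries. Without wild type replicate 2 the log2 fold change was 0.0012 for AGO1b (0.047 with all libraries) and 0.031 for AGO7 (0.084). The median of the 9 genes was then 0.032 (0.066), and that of all tested genes -0.050 (-0.037). Without osg1l2 replicate 2 the median of the 9 genes was 0.10, that of all tested genes -0.045, and DCL1 was at 0.0079 (0.052). For MEL1, 12 further fits without a filter, added after the data were seen, gave log2 fold changes from -0.41 (pseudocount 0.1) to -0.17, and its lowest adjusted p in limma was 0.091, without osg1l2 replicate 4. Against 352 called genes in all, a mean of at least 5 FPKM gave 153, the replicate block 152, library quality weights 1097, and left-out libraries 155 (wild type replicate 1) to 826 (wild type replicate 2); the cause was not tested. The median log2 change over all genes was -0.037 as deposited and 0.0024 after median-of-ratios rescaling. The replicate numbers were not found to pair libraries (deviations of same-numbered libraries correlated at -0.12 to 0.069), and with the replicate block the adjusted p was 0.37 for SHO1 and 0.50 for DCL3a. AGO1 shares moved by less than 1 SD when any library was left out. The limits set by depth were not assessed, as no depth is known.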
